A study of Homo sapiens with 4 samples.

Results

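Plasma membrane amino acid transporters were described in HEK293T cells with and without MORC2, a chromatin ATPase of the MORC family. The members were 10 genes of 28775 in the count table, namely SLC7A11, SLC1A4, SLC1A5, SLC7A5, SLC3A2, SLC7A1, SLC7A3, SLC38A1, SLC38A2 and SLC6A9. They were chosen by hand as transporters of 1 functional class, because SLC7A11 and SLC1A4 were higher in MORC2 KO than in WT in these libraries. The comparison of MORC2 KO with WT was therefore used to choose them, and its values for the members are given as a description with no p-value. All 10 members passed the filter on low counts, which left 16675 genes.

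HEK293T is a transformed line from human embryonic kidney that carries the SV40 large T antigen. The 4 libraries were made from polyadenylated RNA of 2 MORC2 KO samples and 2 WT samples, and the question asked was which genes change expression when MORC2 is lost. MORC2 KO replicate 1 was edited with gRNA 1 and MORC2 KO replicate 2 with gRNA 2, so the gRNA and the replicate cannot be told apart. The KO lines were edited in bulk by nucleofection of Cas9 with gRNA and were not described as clones, so unedited cells may remain in them. The WT samples were unedited HEK293T cells, and no other treatment was described for any group. No mock nucleofection or control gRNA was described for WT, so loss of MORC2 and the editing procedure cannot be told apart. In such bulk samples, fewer cells that express a gene and less RNA per cell cannot be told apart. The labels and the methods describe replicates of a genotype as separate samples, and with 2 per genotype the tests measure only the spread between these samples.

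Each library held 53970043 to 64312514 read pairs on genes, and the 10 genes with most counts took 3.83% to 4.12% of them. MORC2 itself was at 51.2 and 55.0 CPM in the KO libraries and at 86.2 and 87.7 CPM in WT. Its mRNA was thus lower in the libraries labelled KO and was not lost. Of its exonic bases, 23.3% are shared with MORC2-AS1, where read pairs that overlap both genes were left out. The paper checked the KO by western blot for MORC2 protein with both gRNAs, which mRNA counts do not measure. CPM (counts per M read pairs) is the count scaled to library size and by TMM. Of the genes known to be expressed in HEK293 cells, LIN28B was at 82.9 to 91.8 CPM and VIM at 547 to 585 CPM, whereas NEFM was at 5.99 to 8.85 and PAX2 at 1.15 to 1.60 CPM. Markers of leukocytes (PTPRC), hepatocytes (ALB), endothelium (PECAM1) and muscle (DES) had at most 14 counts in any library. MORC2 KO replicate 2 stood further from WT than replicate 1 did, with a median absolute log2 difference over all tested genes of 0.148 against 0.0804. For this reason the members' values are given for each KO library.

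Amino acids do not cross the plasma membrane unaided, and cells take them up through carriers of several solute carrier (SLC) families. Exchangers such as the ASC and L systems swap 1 amino acid for another, whereas system A carriers use the sodium gradient to concentrate small neutral amino acids that the exchangers then trade. Several of these genes are known targets of ATF4, the transcription factor of the amino acid response, which binds C/EBP-ATF response elements together with C/EBP proteins. SLC7A11 is also a known target of NRF2, which binds antioxidant response elements.

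Promoter sequence from RefSeq (GRCh38.p14) was matched for 8 of the 10 members, with 14 promoters in all, and SLC7A11 and SLC7A3 were not among them. Each window reached from 250 bases before to 50 bases after a start. The C/EBP-ATF response element was searched as TGATGNAA on both strands, and was held by 5 of the 14 promoters, in SLC1A4, SLC1A5, SLC38A1, SLC3A2 and SLC7A1, compared with 3.62% of 35116 promoters in the genome. The windows below show the elements that begin upstream of the start, so that SLC1A4, a member called in the comparison below, can be read beside its paralog SLC1A5 and beside SLC38A1. Capitals mark the match, and each line is written 5′ to 3′ on the strand of the gene.
SLC1A4: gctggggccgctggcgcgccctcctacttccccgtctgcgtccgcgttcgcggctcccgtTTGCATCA
SLC1A5: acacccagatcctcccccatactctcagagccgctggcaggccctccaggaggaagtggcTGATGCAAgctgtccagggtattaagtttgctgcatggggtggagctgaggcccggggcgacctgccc
SLC38A1: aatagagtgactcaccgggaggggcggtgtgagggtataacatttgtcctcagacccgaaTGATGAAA
The SLC1A4 window is chr2:64989332-64989399 on the plus strand, and its element lies on the opposite strand and ends at the first transcribed base. The SLC1A5 window is chr19:46784844-46784971 on the minus strand, before an alternative start, with the element 97 bases upstream. The SLC38A1 window is chr12:46266513-46266580 on the minus strand, with the element beginning 4 bases before the start. The antioxidant response element, searched as TGACNNNGC, was in 4 of the 14 promoters (SLC1A5, SLC3A2, SLC7A1 and SLC7A5), compared with 13.3% of all promoters. The E-box CACGTG was in 2 of the 14 promoters (SLC1A5 and SLC7A5), compared with 7.26% of all promoters. None of these motifs overlapped another in the members' promoters. A match is a run of letters and not a bound site.

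The members covered a wide range of levels. Levels are compared between genes as CPM per kb of exon length, on the linear scale. In WT, SLC1A5 had the highest level at 161 ± 5.87 CPM per kb (SD, n = 2), followed by SLC3A2 at 143 ± 6.08 and SLC7A5 at 95.0 ± 2.53. SLC38A2 was at 69.1 ± 1.19, SLC7A1 at 53.8 ± 0.960 and SLC38A1 at 34.4 ± 1.44 CPM per kb. SLC7A11 stood at 13.1 ± 0.972, SLC1A4 at 4.84 ± 0.191, SLC6A9 at 4.35 ± 0.323 and SLC7A3 at 2.46 ± 0.199 CPM per kb. The median tested gene was at 4.75 CPM per kb in WT, so SLC1A4 and SLC6A9 were near the middle of the transcriptome and SLC1A5 was above 98.0% of tested genes. Every pair of neighbours in this order was separate in the 2 WT libraries, and the order of the means was the same in MORC2 KO. The exon length is that of the annotated gene and not of the isoforms expressed, so close ranks depend on it. In the KO libraries SLC1A4 (6.0 and 7.11 CPM per kb) and SLC6A9 (5.09 and 6.75) overlapped.

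SLC7A11, also called xCT, is the light chain of the exchanger that imports cystine and exports glutamate and so feeds glutathione synthesis. It lies at chr4:141487564-141565813 on the minus strand (T2T-CHM13v2.0), where 2.86% of its exonic bases are shared with SLC7A11-AS1. It was counted 9827 times in MORC2 KO replicate 1, 14097 times in MORC2 KO replicate 2, 7927 times in WT replicate 1 and 6385 times in WT replicate 2. These were 164, 213, 133 and 120 CPM. Both KO libraries lay above both WT libraries, and the KO mean was 149% of the WT mean. The log2 fold change was 0.58 ± 0.10 (SE), with log2 differences from WT of 0.38 for KO replicate 1 and 0.75 for KO replicate 2. Leaving out KO replicate 2 gave a fold change of 0.38 that was still called. With DESeq2 in place of edgeR the fold change was 0.57 and was no longer called. SLC7A11-AS1 had 25, 32, 27 and 8 counts in the same order, far below those of SLC7A11.

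SLC3A2 (4F2hc, CD98) is the heavy chain that carries SLC7A11 and SLC7A5 to the cell surface and transports no amino acid by itself. It lies at chr11:62845504-62878241 on the plus strand. Its values were 407 and 397 CPM in the KO libraries and 381 and 405 CPM in WT, with a log2 fold change of 0.03 ± 0.06. This was the only member whose genotypes overlapped, and its fold change was -0.01 without WT replicate 1. The ratio of SLC7A11 to SLC3A2, per kb, was 0.116 and 0.154 in the KO libraries and 0.0999 and 0.0847 in WT. The KO and WT means of the heavy chain differed by less than its 2 WT libraries did, and the ratio followed the light chain. SLC3A2 mRNA was more abundant per kb than SLC7A11 mRNA in every library.

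SLC7A5 (LAT1) is the other light chain of SLC3A2 among the members, and exchanges large neutral amino acids such as leucine for glutamine. It lies at chr16:93902734-93942286 on the minus strand. It was at 476 and 538 CPM in the KO libraries and at 425 and 441 CPM in WT. The genotypes did not overlap, and the log2 fold change was 0.23 ± 0.07, which was not called. It was 0.14 without KO replicate 2 and 0.31 without KO replicate 1. The difference of 74.0 CPM between the KO and WT means exceeded the 62.3 CPM of SLC7A11. The ratio of SLC7A5 to SLC3A2 per kb was 0.708 and 0.820 in the KO libraries and 0.675 and 0.659 in WT. SLC7A5P2, a transcribed pseudogene of SLC7A5 on chromosome 16, was at 3.19 and 3.27 CPM in KO and 3.73 and 3.21 CPM in WT. Read pairs that map to both could be counted at either copy.

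SLC1A4 (ASCT1) and SLC1A5 (ASCT2) are sodium-dependent exchangers of small neutral amino acids, of which SLC1A4 prefers serine and alanine and SLC1A5 carries glutamine. SLC1A4 lies at chr2:64998100-65033490 on the plus strand and SLC1A5 at chr19:49600712-49614415 on the minus strand. SLC1A4 was counted 1691 and 2213 times in the KO libraries and 1395 and 1180 times in WT, or 28.3 and 33.5 CPM against 23.4 and 22.2 CPM. Its KO and WT libraries did not overlap, and the log2 fold change was 0.44 ± 0.08, with differences of 0.31 and 0.55 for the KO libraries. It was no longer called without WT replicate 2, with a fold change of 0.40, or after a loess trend on abundance was removed, with one of 0.43. SLC1A5 was at 546 and 549 CPM in the KO libraries and at 494 and 520 CPM in WT, with a log2 fold change of 0.11 ± 0.06 that was not called. Both KO libraries were nearly alike in SLC1A5, unlike in SLC1A4. SLC1A4 amounted to 3.47% and 4.08% of SLC1A5 in the KO libraries and to 3.18% and 2.85% in WT, per kb.

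SLC7A1 (CAT1) and SLC7A3 (CAT3) carry the cationic amino acids arginine, lysine and ornithine. SLC7A1, at chr13:28732320-28818290, was at 414 and 455 CPM in the KO libraries and at 400 and 390 CPM in WT. Its log2 fold change was 0.14 ± 0.07, which became 0.07 without KO replicate 2 and 0.21 without KO replicate 1. SLC7A3, at chrX:69359629-69365145, had the fewest counts of the members, with 359 and 498 in the KO libraries and 346 and 276 in WT. These were 6.004 and 7.54 CPM against 5.81 and 5.19 CPM, with a log2 fold change of 0.30 ± 0.13. That of SLC7A3 became 0.13 without KO replicate 2 and 0.45 without KO replicate 1. Both genes lie on the minus strand and neither was called with all 4 libraries, although the genotypes did not overlap. KO replicate 1 was close to WT replicate 1 in SLC7A3, and the SE was the largest of the members.

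SLC38A1 (SNAT1) and SLC38A2 (SNAT2) are system A carriers, and SLC38A2 is known to be induced when amino acids are scarce. The 2 genes are neighbours on the minus strand of chromosome 12, with 89143 bp between them, at chr12:46142659-46228603 and chr12:46317747-46332332. SLC38A1 was at 362 and 418 CPM in the KO libraries and at 340 and 321 CPM in WT, with a log2 fold change of 0.24 ± 0.07. SLC38A2 was at 367 and 379 CPM in KO and at 327 and 335 CPM in WT, with a log2 fold change of 0.17 ± 0.06. Neither was called, and in both genes the KO libraries lay above the WT libraries. KO replicate 2 differed from WT by 0.34 in SLC38A1 and by 0.19 in SLC38A2 on the log2 scale, and KO replicate 1 by 0.13 and 0.15. Without KO replicate 1 the fitted fold changes were 0.34 in SLC38A1 and 0.19 in SLC38A2.

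SLC6A9 (GLYT1) is a sodium- and chloride-dependent glycine transporter. It lies at chr1:43867575-43902553 on the minus strand, and 1.24% of its exonic bases are shared with CCDC24. It was counted 1125 and 1650 times in the KO libraries and 908 and 902 times in WT. The values of 18.8 and 24.97 CPM in KO lay above those of 15.3 and 16.9 CPM in WT. Its log2 fold change of 0.45 ± 0.11 was of the size of that of SLC1A4, but it was not called. The log2 differences from WT were 0.23 for KO replicate 1 and 0.63 for KO replicate 2.

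**Figure D1:**
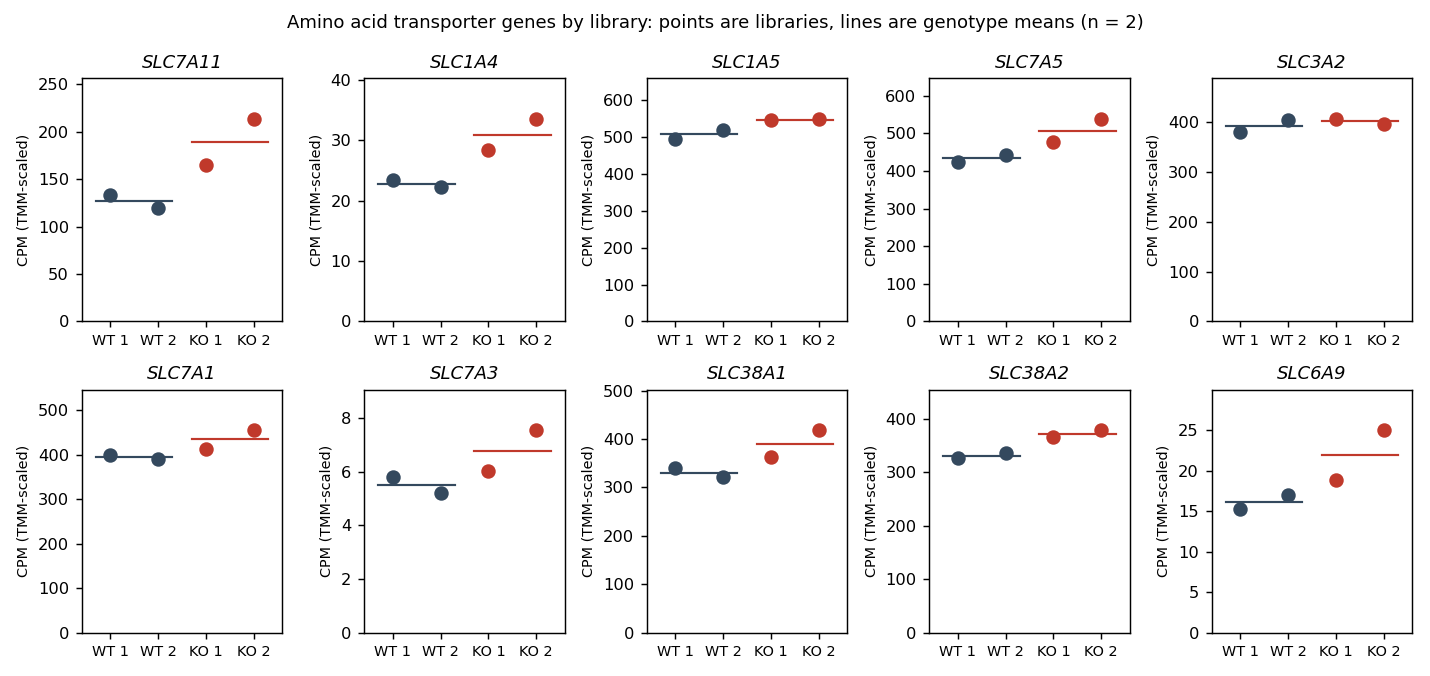
TMM-scaled CPM of the 10 transporters in each library, with axes from 0, WT in dark blue, MORC2 KO in red and horizontal lines at the mean of the 2 libraries. The KO points lie above the WT points in every panel except that of SLC3A2, and KO replicate 2 is the higher KO library in the same 9 panels.

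Across the members, 2 of 10 were called higher in MORC2 KO (SLC7A11 and SLC1A4) and 0 were called lower, by the edgeR quasi-likelihood F-test with Benjamini-Hochberg adjustment over all tested genes. Over all tested genes, 0.588% were called higher and 0.03% lower. Since these members were picked by this comparison, nothing is read from the difference. In 9 of 10 members both KO libraries were above both WT libraries, which held for 24.1% of all tested genes. The log2 fold change was above 0 in 10 of 10 members, with a median of 0.23, and the median over all tested genes was 0.01. The median of the members was 0.14 without KO replicate 2 and 0.33 without KO replicate 1. Without KO replicate 1, 8 members were called, and 1598 genes were then called higher and 1936 lower in the whole table. The summed level of the members was 2789 and 3016 CPM in the KO libraries and 2545 and 2576 CPM in WT. SLC7A11 made up 5.89% and 7.08% of that sum in KO and 5.23% and 4.66% in WT.

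**Figure D2:**
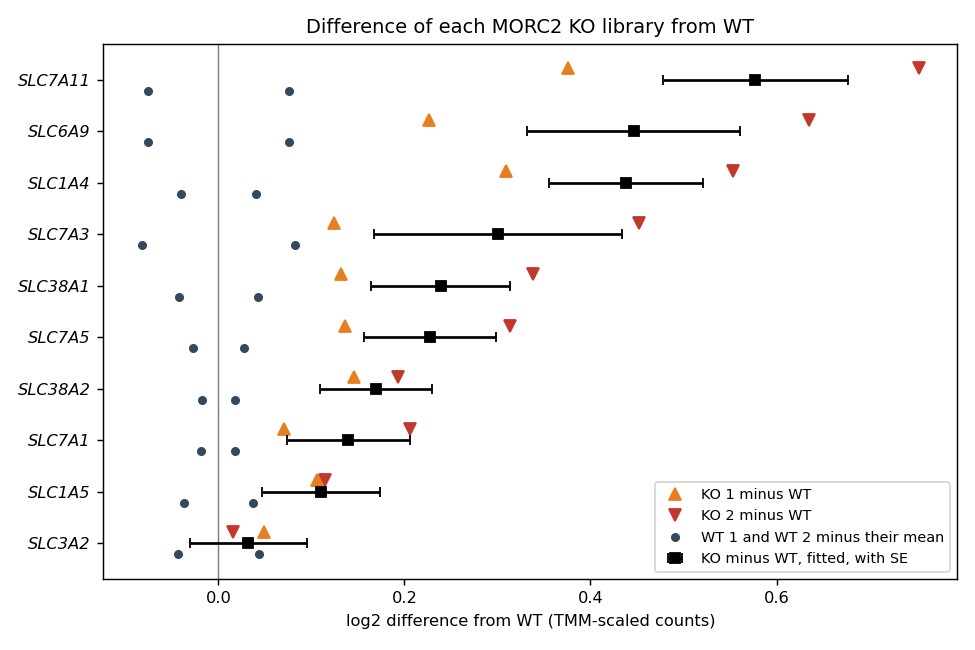
Difference of each MORC2 KO library from WT on the log2 scale, with triangles for the single KO libraries, black squares for the fitted fold change with its SE, and dark dots for the WT libraries about their own mean. KO replicate 2 (red) lies right of KO replicate 1 (orange) for every gene except SLC3A2, and the gap is widest for SLC6A9 and SLC7A11.

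The 2 KO libraries also differed from each other. The members were chosen with each KO library compared with WT separately, and each KO line was 1 library, so these differences are values with no p-value. On the log2 scale, KO replicate 2 was higher than KO replicate 1 by 0.41 in SLC6A9, 0.38 in SLC7A11, 0.33 in SLC7A3, 0.24 in SLC1A4 and 0.21 in SLC38A1. The differences were 0.18 in SLC7A5, 0.14 in SLC7A1, 0.05 in SLC38A2, 0.01 in SLC1A5 and -0.03 in SLC3A2. KO replicate 2 was thus the higher in 9 of 10 members, which held for 50.8% of all tested genes. Both KO libraries above WT and KO replicate 2 above KO replicate 1 was the pattern of 9 of 10 members and of 17.3% of all tested genes.

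The WT libraries differed from each other by a median absolute log2 difference of 0.0829 over the members, and the KO libraries by 0.192. In an edgeR fit that took its spread from the WT pair alone, SLC7A11 and SLC6A9 passed as higher in KO replicate 2, as did 0.3% of all tested genes, and nothing is read from these calls. No member passed after a loess trend on abundance was removed. The KO pair differed by more than the WT pair over all tested genes too, by a median absolute log2 difference of 0.120 against 0.0758. MORC2 itself was higher by 0.10 in KO replicate 2 on the log2 scale. The part of the gRNA, of residual unedited cells and of the library in these differences was not tested.

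The genes whose pattern over the 4 libraries was most like that of SLC7A11 were found by the Euclidean distance of log2 CPM centred on the WT mean. Among them were MFSD2B (distance 0.0324), WDR31 (0.0476), HOXBLINC (0.0496) and SYT16 (0.0608). MFSD2B and HOXBLINC had at most 32 counts in any library, so their likeness rests on few reads. For SLC1A4 they were HRK (0.0320), CEBPD (0.0356), ZXDB (0.0384), TTC3P1 (0.0423) and MIR647 (0.0484). Of these, MIR647 had at most 53 counts in any library and CEBPD at most 187. HRK encodes a pro-apoptotic BH3-only protein and CEBPD a C/EBP transcription factor. SLC1A4 ranked 169 in likeness to SLC7A11 and SLC6A9 ranked 343 among all tested genes.

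Other amino acid transporters of the plasma membrane were listed to set the members beside their class. Of 29 such genes, 17 passed the filter, and the 12 that did not had at most 16 counts in any library. Of the 17, 0 were called by edgeR. An unadjusted p under 0.05 in edgeR held for 2387 of all 16675 tested genes and for 3 of the 17, of which 1 was higher and 2 were lower. DESeq2 also called 0, whereas edgeR called 0.588% of all tested genes higher and 0.03% lower. Their median log2 fold change was -0.02, and 8 of 17 were above 0. The most abundant per kb was SLC6A15, a neutral amino acid transporter, at 153 ± 0.255 CPM in KO and 154 ± 4.76 in WT (SD, n = 2). SLC1A3, a glutamate transporter, had a log2 fold change of -0.20 ± 0.07 and SLC7A8 (LAT2), another light chain of SLC3A2, one of -0.35 ± 0.09. SLC43A1, a carrier of large neutral amino acids, had one of 0.35 ± 0.13. None of these 3 passed the adjusted test, with edgeR adjusted p-values of 0.270, 0.123 and 0.264. SLC7A6 and SLC7A2, which carry cationic amino acids, had fold changes of -0.04 ± 0.06 and -0.06 ± 0.06.

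Carriers of lysosomes and mitochondria were listed in the same way. Of 19 intracellular transporters, 17 passed the filter and 0 were called by edgeR or by DESeq2. An unadjusted p under 0.05 in edgeR held for 2387 of all 16675 tested genes and for 1 of the 17 (SLC38A10). Calls by edgeR over all tested genes were 0.588% higher and 0.03% lower. Their fold changes ran from -0.11 to 0.18 with a median of -0.03 on the log2 scale. The most abundant per kb was SFXN1, a mitochondrial serine carrier, at 280 ± 12.5 CPM in KO and 290 ± 7.92 CPM in WT (SD, n = 2). The mitochondrial glycine carrier SLC25A38 and the aspartate/glutamate carrier SLC25A13 each had a fold change of -0.07 ± 0.06. SLC25A22, a mitochondrial glutamate carrier, had one of -0.04 ± 0.06.

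Of 18 genes that sense amino acids or answer to their lack, 1 was called higher, 0 were called lower and the median log2 fold change was -0.000849. Over all tested genes, edgeR called 0.588% higher and 0.03% lower. The gene called was RRAGA, 1 of the Rag GTPases that bring mTORC1 to the lysosome. It was at 80.1 and 78.1 CPM in the KO libraries and at 57.2 and 59.0 CPM in WT, and the genotypes did not overlap. Its log2 fold change was 0.44 ± 0.06 (edgeR, adjusted p = 0.00248), and it was called under every alternative run, with fold changes from 0.42 to 0.48. Its close paralog RRAGB had a fold change of 0.08 ± 0.08, and reads that map to both could be counted at either. ATF4, the most abundant of the list, was at 844 ± 27.8 CPM in KO and 846 ± 14.1 CPM in WT (SD, n = 2). These mRNA counts do not measure ATF4 protein or its activity. SESN2 and TRIB3, both known ATF4 targets, had fold changes of 0.26 ± 0.06 and 0.21 ± 0.08. They did not pass in the main test (edgeR, adjusted p = 0.104 and 0.277). Of the alternatives on all 4 libraries, SESN2 was called with DESeq2, with GC content and length offsets and with no filter. RLE scaling, library size alone, offsets on abundance and the replicate block did not call it. DDIT3 (CHOP) had a fold change of 0.02 ± 0.09. LAMTOR1, LAMTOR2 and GCN1 had fold changes of -0.10 ± 0.06, -0.13 ± 0.06 and -0.04 ± 0.06.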

How the data were processed

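Polyadenylated RNA of 2 MORC2 KO and 2 WT HEK293T samples was sequenced. Alignment was to the T2T-CHM13v2.0 assembly (Subread 2.0.6), and the authors deposited raw counts per RefSeq gene from featureCounts 2.0.6, without normalization. The command recorded with the file counted multi-mapping reads and set no strand option, whereas the methods speak of default options. Pairs that overlapped more than 1 gene were left out. Reads of paralogs, pseudogenes and overlapping antisense genes are therefore less certain.

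Symbols came from RefSeq by Entrez identifier (28763 of 28775 matched). The columns of other samples numbered 0. Genes were filtered with filterByExpr (16675 left), scaled by TMM and tested with quasi-likelihood F-tests on genotype in edgeR 4.0.16 (R 4.3.3, older form, following the study), adjusted by Benjamini-Hochberg at 0.05. The KO libraries, 1 per gRNA, were set against each other in a 3-group fit with 1 residual degree of freedom, from the WT pair, so no p-value is given for them. The SE of a fold change was taken from its F statistic, as the change over the root of F. CPM is TMM-scaled, and CPM per kb uses the exon length in the file. Totals of 53970043 to 64312514 counts leave replicate spread, not depth, as the limit for most members. The replicate pairs differed by more than counting noise, with a chi-square per degree of freedom of 16.8 for KO and 6.56 for WT.

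The members and lists were chosen with earlier results of these data known. The genes named were the members, MORC2, each called gene of a list, the 4 genes per list with the highest WT level per kb, and the 5 genes most like SLC7A11 and SLC1A4, of which 1 is not reported here. SLC7A8, SLC43A1, SLC38A10, RRAGB, SESN2, TRIB3 and DDIT3 were named after their values were seen. Alternatives were RLE scaling, library size alone, offsets from a loess trend (span 0.3) on abundance or on GC content and length (GC known for 94.9% of tested genes), 2 other filters, the newer edgeR form, DESeq2 1.42.0, the replicate number as a block and leaving out each sample. The scripts were tested on simulated data. Same-numbered samples had correlated deviations of -0.124, so the numbers were not taken as pairs.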

Additional observations from a re-analysis of the deposited data

Results flagged for a closer look

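Of the members, SLC6A9 and SLC7A11 had the widest differences between the 2 MORC2 KO libraries, and that of SLC7A3 was 0.33 on the log2 scale. SLC7A11 was higher in KO replicate 2 than in KO replicate 1 by 0.38 on the log2 scale, and SLC6A9 by 0.41. Each KO line was 1 library with its own gRNA, the spread was taken from the WT pair, and neither difference passed after a loess trend on abundance was removed, so these are values without a replicate check.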

How the results depend on the processing

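Of the members, 2 were called higher by the main test, 5 with no filter on low counts, 1 with offsets on abundance (SLC1A4 lost), 1 with DESeq2 (SLC7A11 lost) and 2 to 8 when 1 sample was left out. SLC6A9 passed with no filter, with offsets on GC content and length, and without KO replicate 1 or WT replicate 2. Other plasma membrane transporters called higher numbered 0, 1 with no filter and 0 to 1 leaving out a sample, and those called lower 0, 1 and 0 to 2. Intracellular transporters numbered 0 to 1 higher and 0 to 1 lower leaving out a sample. Sensing genes called higher numbered 1, and 2 with no filter, with GC and length offsets or with DESeq2, and 1 to 3 leaving out a sample, with 0 to 1 lower. Of all SLC genes, 5 were called higher, 19 with no filter, 8 with GC and length offsets and 4 to 37 leaving out a sample. Of these, 0 were lower, 3 with no filter and 0 to 22 leaving out a sample. All of the highest counts came without KO replicate 1, in fits that assume the lone sample varies like the other genotype. The cause was not tested. The median of the members ran from 0.14 to 0.33 when a sample was left out. The log2 fold change of SLC3A2 ran from -0.0106 (without WT replicate 1) to 0.0764 (without WT replicate 2). Between the KO libraries, with the spread of the WT pair, 2 members passed, 4 with no filter and 0 with offsets on abundance. With the replicate block, 11 SLC genes were called higher and SLC6A9 passed. In all, 237 genes were then called higher and 42 lower, compared with 98 and 5 in the main test. The test with no filter called 463 genes higher and 182 lower of 22728 in all, and that with GC and length offsets 173 and 28. The same-numbered samples correlated at -0.124, so a crossed pairing was added after seeing the data. It called 6 members, 1 and 2 other plasma membrane transporters (higher and lower) and 1 intracellular transporter. It also called 3 sensing genes, 24 and 13 of all SLC genes, and 903 and 809 of all tested genes.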

Other observations

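Among all 307 tested genes with SLC symbols, 5 were called higher in MORC2 KO and 0 lower by edgeR. The shares over all tested genes were 0.588% and 0.03%. SLC7A11 and SLC1A4 are among the 5 and were picked by this comparison, which leaves 3 of the 297 other SLC genes. The 3 that are not amino acid transporters listed above were SLC25A43, a mitochondrial carrier family member, SLC44A5, a choline transporter-like protein, and SLC5A12, a sodium-coupled lactate transporter. SLC25A43 was at 16.7 and 18.4 CPM in the KO libraries and at 10.4 and 10.03 CPM in WT, with a log2 fold change of 0.78 ± 0.09 (edgeR, adjusted p = 0.000792). SLC44A5 was at 21.1 and 22.8 CPM in KO and at 15.6 and 12.2 CPM in WT, with a log2 fold change of 0.65 ± 0.10 (edgeR, adjusted p = 0.00963). SLC5A12 was at 3.78 and 3.87 CPM in KO and at 2.18 and 2.10 CPM in WT, with a log2 fold change of 0.83 ± 0.15 (edgeR, adjusted p = 0.0255). In these 3 genes the KO libraries did not overlap with WT, and KO replicate 2 was higher than KO replicate 1 by 0.14, 0.11 and 0.04 on the log2 scale. Over the 297 tested SLC genes other than the members, 56.2% of log2 fold changes were above 0 with a median of 0.02, compared with 51.5% and 0.01 over all tested genes.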
